A study of Mus musculus with 10 samples.

Results

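The 10 integrin genes described here encode the chains that bind fibronectin or the RGD (arginine-glycine-aspartate) motif, together with their closest partners: the alpha chains Itga4, Itga5, Itga8, Itga9 and Itgav and the beta chains Itgb3, Itgb5, Itgb6, Itgb7 and Itgb8. They were chosen by gene symbol, and all 10 were found among the 49568 genes of the expression table. RNA-seq of polyadenylated transcripts covered 10 cell lines of mouse pancreatic cancer, with 1 library each, 5 labelled KPC (A1081, A1620, A1625, A2031 and A2032) and 5 labelled KPCAf/f (A1693, A1809, A1925, A2441 and A3992). KPC names a mouse model of pancreatic cancer, and the added A is read here as Arid1a, the SWI/SNF chromatin remodelling gene of the series title, with f/f for floxed alleles. The labels do not spell out the alleles or the Cre driver, give no age, and name no treatment, all lines being grown in DMEM with fetal bovine serum. They do not say whether each line came from its own mouse or from 1 clone, so p-values measure only the spread between these lines.

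Integrins are cell surface receptors made of 1 alpha and 1 beta chain that couple the extracellular matrix to the actin cytoskeleton. Itga5 pairs with Itgb1 as the classical fibronectin receptor, and Itgav pairs with Itgb1, Itgb3, Itgb5, Itgb6 or Itgb8. Itgb6 is an epithelial chain that is low in healthy adult epithelium and raised in wounds and carcinomas, and αvβ6 and αvβ8 are known as activators of latent TGF-beta. Itgb3 and Itga5 are more usual in mesenchymal and endothelial cells, Itga8 in mesenchymal and contractile cells, and Itga4 and Itgb7 in leukocytes.

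Library totals lay between 15124888 and 20419830 reads in genes, and 1 read corresponded to 0.818 to 1.32 normalized counts. Arid1a had 2267, 820, 3109, 2460 and 1915 normalized counts in KPC lines A1081, A1620, A1625, A2031 and A2032 and 1785, 1253, 1510, 1258 and 1519 in KPCAf/f lines A1693, A1809, A1925, A2441 and A3992 (limma adjusted p = 0.563). Which exons are floxed is not given in the labels, so a count over the whole gene does not check the deletion. Cdh1 (E-cadherin) and the pancreatic factor Pdx1, markers of the labelled cell type, were nearly absent in A1693, at 10.8 and 2.70 normalized counts, and were at least 3143 and 594 in each other line. A1620 stood apart by a loss of long transcripts. Its log2 level relative to the mean of all lines had a slope of -0.65 on log2 transcript length. This slope lay between -0.02 and 0.04 for A1081, A1625, A2031 and A2032. Each KPCAf/f line had a higher slope, 0.10 at the lowest and 0.15 at the highest, so the genotypes did not overlap in it. The genotypes also differed in 4 Y-linked genes, with 1148 to 3415 reads together in each KPC line and 0 to 3 in each KPCAf/f line, and this difference cannot be told apart from genotype. All levels are counts normalized for library size, and a positive log2 fold change means more in KPCAf/f. Fold changes were taken after adding 1 to each count, so changes of weakly expressed genes are understated.

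The KPCAf/f lines had more of the fibronectin receptor chain Itga5, and had low levels of Itga8 and Itgb8 that the KPC lines barely showed. The epithelial chain Itgb6 was at KPC levels or above in 2 KPCAf/f lines and at most at 62.4 normalized counts in the other 3. Of the 10 members, 6 had at least 10 normalized counts in at least 5 lines and were tested. Itga5 alone was called (limma, Benjamini-Hochberg adjusted p under 0.05 over 13089 genes, of which 1.75% were called and 1.36% were called higher). Of the other 5 tested members, Itgav, Itgb3, Itgb5 and Itgb7 had positive and Itgb6 a negative log2 fold change, none of them called. Itga4, Itga8, Itga9 and Itgb8 did not pass the filter. A correction for transcript length was run only on genes that passed, so the part of length in these members was not tested. For 3 of the 10 members, Itga5, Itga8 and Itgb8, every KPCAf/f line was above every KPC line. Among the 28712 genes with any read, 1.99% were higher in KPCAf/f with no overlap.

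**Figure D1:**
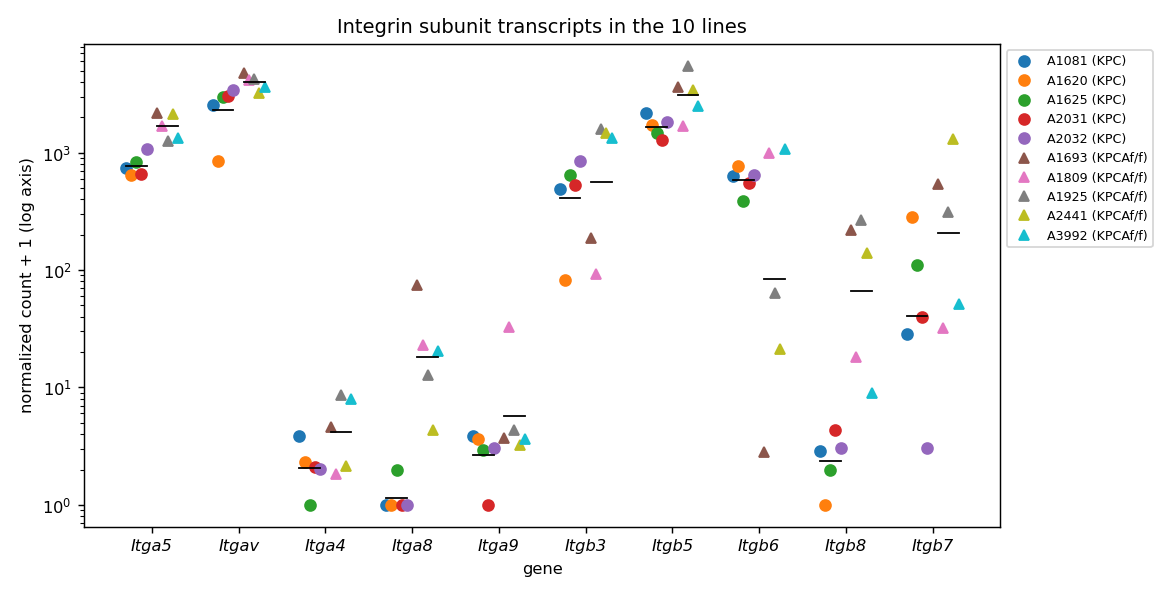
Normalized count + 1 (log axis) of the 10 integrin genes, with 1 point per line (circles KPC, triangles KPCAf/f) and a bar at the mean of the log2 values of each genotype. Itga5, Itga8 and Itgb8 do not overlap between genotypes, and Itgb6 spans 1.80 to 1083 normalized counts among the KPCAf/f lines.

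Itga5, the alpha chain of the fibronectin receptor α5β1, had 736, 648, 835, 657 and 1065 normalized counts in KPC lines A1081, A1620, A1625, A2031 and A2032 and 2182, 1692, 1250, 2137 and 1323 in KPCAf/f lines A1693, A1809, A1925, A2441 and A3992. Every KPCAf/f line lay above every KPC line. The mean rose from 788 ± 172 to 1717 ± 438 (SD, n = 5 lines each), a log2 fold change of 1.11 (SE 0.23, limma adjusted p = 0.0328). Corrected for transcript length, the log2 fold change of Itga5 was 0.97 (limma adjusted p = 0.0432). On the recovered reads, edgeR (adjusted p = 0.0363, 1.31% of genes called) and DESeq2 (adjusted p = 0.000431, 5.7% called) also called it, and limma-voom did not (adjusted p = 0.0554, 0.802% called). The call was lost without any 1 of A1081, A1620, A1625, A2031, A1693, A1809 or A2441, with log2 fold changes of 1.01 to 1.22 and limma adjusted p of 0.0295 to 0.0906 when each of the 10 lines was left out in turn, and without A1620 and A1693 together (log2 fold change 0.95, adjusted p = 0.102, 1.41% of genes called). Itga5 (ENSMUSG00000000555.8) spans 103344286 to 103366763 of chromosome 15, minus strand, in GENCODE M21 (GRCm38). The promoter window is printed because Itga5 is the only called member. It is the RefSeq window from 250 bases before to 50 bases after the start (GRCm38.p6, chr15:103366742-103367041, minus strand), with GC boxes in capitals.
Itga5: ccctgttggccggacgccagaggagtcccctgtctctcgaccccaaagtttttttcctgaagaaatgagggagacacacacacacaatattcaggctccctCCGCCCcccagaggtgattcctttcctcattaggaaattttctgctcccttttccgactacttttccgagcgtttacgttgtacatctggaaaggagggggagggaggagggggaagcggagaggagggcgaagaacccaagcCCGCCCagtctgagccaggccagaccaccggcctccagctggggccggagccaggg
The letters GGGCGG or their reverse complement occurred 2 times in this window, and 35.7% of 32851 RefSeq promoter windows of the same length held them. Searched the same way on both strands were the E-box CACCTG, known as a site of Snail and Zeb repressors, in 20.2% of all windows, the AP-1 motif TGANTCA, in 7.81%, and the TEAD motif GGAATG, in 14.7%. None of these letters was in the Itga5 window.

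The alpha chain of the broader RGD receptors, Itgav, was abundant in every line. It had 2546, 852, 2995, 3033 and 3401 normalized counts in A1081, A1620, A1625, A2031 and A2032 and 4779, 4154, 4272, 3243 and 3641 in A1693, A1809, A1925, A2441 and A3992. KPC line A1620 was far below the rest, and A2441 lay within the KPC range. The means were 2565 ± 1005 in KPC and 4018 ± 593 in KPCAf/f (log2 fold change 0.78, SE 0.35, limma adjusted p = 0.329). Without A1620 the log2 fold change was 0.42 (limma adjusted p = 0.225) and with a correction for transcript length it was 0.48 (adjusted p = 0.279). The longest annotated Itgav transcript has 7054 bases. It spans 83724397 to 83806916 of chromosome 2, plus strand (GRCm38).

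Itga8, whose product binds fibronectin and nephronectin as α8β1, had 0.978 normalized counts in A1625 and 0 in the other 4 KPC lines, against 73.8, 22.1, 11.8, 3.37 and 19.4 in A1693, A1809, A1925, A2441 and A3992. Every KPCAf/f line therefore had reads of it, and A1693 had the most. Over the KPC lines it had 1 read and over the KPCAf/f lines 148 reads, a 125-fold ratio of summed levels (exact interval 22.2 to 4988, for counting error only). Without A1693 the mean in KPCAf/f was 14.2 ± 8.41 normalized counts, in place of 26.1 ± 27.7, and the ratio 70.0 (12.1 to 2804). In the fit of all 28712 genes with a read, of which 1.11% were called, its log2 fold change was 3.99 (SE 0.70, limma adjusted p = 0.0157), and edgeR without a filter also called it (adjusted p = 0.0141, 1.17% of genes called). With 1 line left out its limma adjusted p ranged from 0.0125 to 0.0918. The call held only without A1693 or A2441.

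The remaining alpha chains stayed near the limit of detection. Itga4, the alpha chain of leukocyte integrins that bind fibronectin and Vcam1, had 0 to 2.84 normalized counts in KPC lines (median 1.12) and 0.818 to 7.59 in KPCAf/f lines (median 3.60). Itga9, a receptor chain for tenascin-C and the alternative EIIIA segment of fibronectin, had 0 to 2.84 in KPC lines (median 2.06), 31.9 in A1809 and at most 3.37 in the rest of the KPCAf/f lines. An antisense gene, Gm2415, overlaps Itga9 with up to 169 normalized counts, and Cerkl overlaps Itga4 on the opposite strand with up to 28.2. Without a stated strand setting, reads of either pair may be mixed.

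Itgb6 separated the KPCAf/f lines into 2 sets. KPC lines A1081, A1620, A1625, A2031 and A2032 had 630, 775, 383, 553 and 638 normalized counts, a 2.03-fold range. A1809 and A3992 had 987 and 1083, above every KPC line, whereas A1925, A2441 and A1693 had 62.4, 20.2 and 1.80, below every KPC line. The KPCAf/f range was thus 601-fold. The means were 596 ± 143 in KPC and 431 ± 553 in KPCAf/f. The log2 fold change of -2.80 (SE 1.42, 95% interval -5.93 to 0.33) was not called (limma adjusted p = 0.392), and edgeR, which compares mean counts, gave -0.47 (adjusted p = 0.867). Without A1693 the limma value was -1.58 (adjusted p = 0.580). Itgb6 (ENSMUSG00000026971.15) spans 60598292 to 60722643 of chromosome 2, minus strand (GRCm38).

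Itgb8, the beta chain of the other TGF-beta-activating receptor, had 1.89, 0, 0.978, 3.35 and 2.06 normalized counts in A1081, A1620, A1625, A2031 and A2032. It had 217, 268 and 138 in A1693, A1925 and A2441, and 17.2 and 7.93 in A1809 and A3992. The genotypes did not overlap, and within KPCAf/f the 3 lines with the lowest Itgb6 had the highest Itgb8. KPC lines held 8 reads and KPCAf/f lines 712 reads, with means of 1.66 ± 1.26 and 130 ± 117 normalized counts. In the fit of all genes with a read its log2 fold change was 4.81 (SE 0.98, limma adjusted p = 0.0348), and edgeR without a filter gave an adjusted p of 0.0126. The limma call was lost without any 1 line except A3992, with adjusted p of 0.0326 to 0.170. Itgb8 (ENSMUSG00000025321.14) spans 119158022 to 119238802 of chromosome 12, minus strand (GRCm38).

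Within lines, log2 Itgb6 minus log2 Itgb8 was 6.99 to 9.60 in KPC lines and 5.76 and 6.92 in A1809 and A3992, but -6.28, -2.09 and -2.71 in A1693, A1925 and A2441. These 3 lines thus had more Itgb8 than Itgb6 counts, which no KPC line had. This contrast was noticed after the values were seen and was not tested. The promoter windows of the 2 genes are printed because the 3 KPCAf/f lines with the lowest Itgb6 had the highest Itgb8. Within those 3 lines the order was not opposite, A1925 having the most of both. They are RefSeq windows of GRCm38.p6 at chr2:60722554-60722853 and chr12:119238227-119238526, both on the minus strand, with the E-box in capitals.
Itgb6: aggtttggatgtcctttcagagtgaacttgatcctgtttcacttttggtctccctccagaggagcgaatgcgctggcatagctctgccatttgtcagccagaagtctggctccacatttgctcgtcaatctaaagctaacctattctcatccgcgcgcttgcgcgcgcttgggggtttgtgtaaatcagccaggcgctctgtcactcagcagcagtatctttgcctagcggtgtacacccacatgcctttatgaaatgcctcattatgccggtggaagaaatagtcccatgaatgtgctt
Itgb8: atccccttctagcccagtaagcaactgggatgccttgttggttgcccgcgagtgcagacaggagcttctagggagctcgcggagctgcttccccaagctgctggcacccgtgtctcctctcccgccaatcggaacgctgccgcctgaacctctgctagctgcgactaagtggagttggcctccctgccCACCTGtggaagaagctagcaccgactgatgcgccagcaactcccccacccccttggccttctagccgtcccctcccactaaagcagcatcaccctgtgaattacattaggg
The Itgb8 window held 1 E-box and the printed Itgb6 window none of the 4 motifs. RefSeq lists another Itgb6 start within the gene (chr2:60673644-60673943), whose window held 1 E-box. The GC content was 50.3% in the printed Itgb6 window and 60.7% in that of Itgb8. Promoter windows were found for 9 of the 10 members, Itgb3 being the one without an entry.

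**Figure D2:**
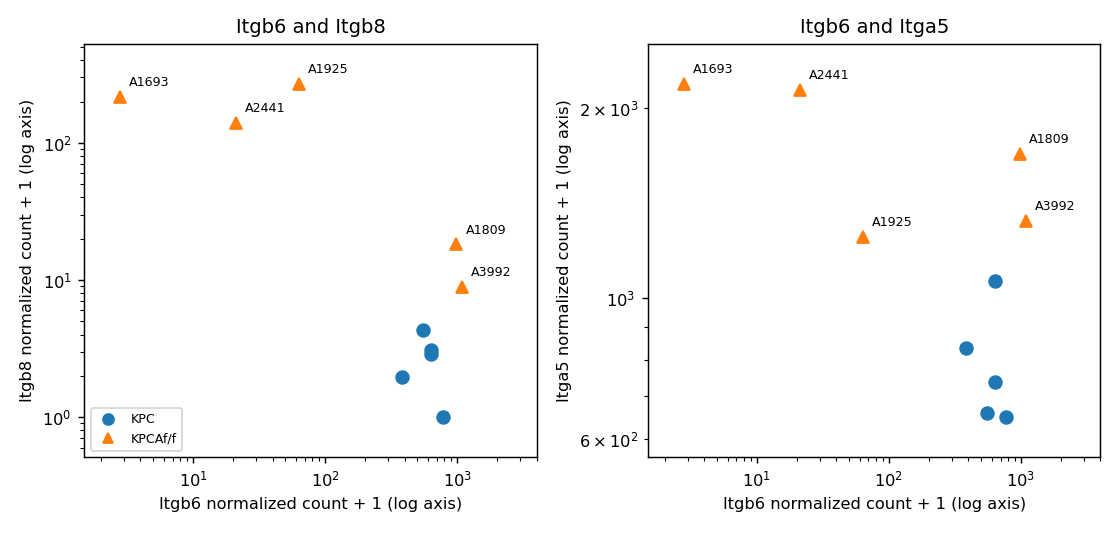
Itgb8 (left) and Itga5 (right) against Itgb6, normalized count + 1 on log axes, with 1 point per line (circles KPC, triangles KPCAf/f, the latter named). A1693, A1925 and A2441 sit at low Itgb6 and at 138 to 268 Itgb8. A1809 and A3992 lie above every KPC line in Itgb6, Itgb8 and Itga5.

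Cdh1 did not run parallel to Itgb6 in every line. Cdh1 had 8010 to 22853 normalized counts in KPC lines and 10.8, 11884, 8035, 3143 and 8307 in A1693, A1809, A1925, A2441 and A3992. A3992 had 17.4 times the Itgb6 of A1925 but 1.03 times its Cdh1. Epcam, another epithelial adhesion protein, had 34.4 in A1620 and 82.5 in A2032, lines with 775 and 638 of Itgb6, and 37.9 in A1925 with 62.4 of Itgb6. Of 13 tested epithelial markers 0 were called by limma and 3 had an unadjusted limma p under 0.05, beside 1.75% and 14.6% of all tested genes. The median log2 fold change of the 13 was -1.96. The summed level of all 14 listed epithelial markers was 124047 to 268340 normalized counts in KPC lines. It was 6324, 91288, 57220, 31382 and 125546 in A1693, A1809, A1925, A2441 and A3992. All KPCAf/f lines but A3992 were thus below every KPC line in this sum. Of 13 tested mesenchymal markers, 9 rose and 0 fell (median log2 fold change 7.15), beside 1.36% of all tested genes called higher. These were Col1a1, Col1a2, Col3a1, Lox, Pdgfrb, Prrx1, Snai1, Cald1 and Fbn1, with log2 fold changes of 2.99 to 10.50, while Cdh2, Zeb1, Zeb2 and Twist1 were not called. Their summed level, 2737 to 8522 normalized counts in KPC lines and 30936 to 121733 in KPCAf/f lines, was thus also high in A1809 and A3992, where Itgb6 was high. Both lists were chosen with earlier results of these data known. Pdgfrb and Col3a1 are also on the list of fibroblast and mural markers and Fbn1 on that of ligands, so these lists are not separate support. Among KPC lines Fbn1 reached 10 normalized counts only in A1620, so it needed KPCAf/f lines to pass the filter.

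The comparison of epithelial Itgb6 with the fibronectin receptor chain was made within each line. Log2 Itgb6 minus log2 Itga5 was -0.23, 0.26, -1.12, -0.25 and -0.74 in A1081, A1620, A1625, A2031 and A2032. It was -9.61, -0.78, -4.30, -6.65 and -0.29 in A1693, A1809, A1925, A2441 and A3992. A1809 and A3992 lay inside the KPC range, with Itgb6 and Itga5 both above every KPC line. The means were -0.42 ± 0.53 and -4.33 ± 3.94, a difference of -3.91 that missed the threshold (two-sided exact permutation p = 0.0556 over every split into 5 and 5 lines). Without A1809 the difference was -4.80 (exact permutation p = 0.0238) and without A3992 it was -4.92 (exact permutation p = 0.0159). Both lines lay inside the KPC range, so leaving either out enlarges the difference by construction. Leaving out any other single line gave exact permutation p of 0.0556 to 0.103. Without A1693 the difference was smaller, -2.59 (exact permutation p = 0.0635), and without A1620 and A1693 together it was -2.42 (exact permutation p = 0.2). Against Itgav, Itgb3, Itgb5 and Itgb7, Itgb6 was also below the whole KPC range in A1693, A1925 and A2441 and not in A1809 or A3992. The members near 0 in KPC lines did not give this split. Against Itga8 and Itgb8, all 5 KPCAf/f lines were below every KPC line, with A1809 at 5.42 and 5.76 and A3992 at 5.73 and 6.92. Against Itga4, all but A1809 were below, and against Itga9 all but A3992. These differences were described and not tested.

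Itgb3, the beta chain of αvβ3, differed among lines more than between genotypes. It had 493, 80.8, 647, 527 and 851 normalized counts in A1081, A1620, A1625, A2031 and A2032 and 187, 91.7, 1588, 1455 and 1332 in A1693, A1809, A1925, A2441 and A3992. The 3 highest KPCAf/f lines exceeded every KPC line, and A1693 and A1809 lay below all KPC lines but A1620. The log2 fold change was 0.44 (SE 0.91, limma adjusted p = 0.838). It turned to -0.14 without A1620 (adjusted p = 0.956). A1693 and A1809, with Cdh1 at 10.8 and 11884, were thus alike in low Itgb3.

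Itgb5, which pairs with Itgav as a vitronectin receptor, was the most abundant member per kilobase in either genotype. It had 2174, 1722, 1456, 1281 and 1817 normalized counts in A1081, A1620, A1625, A2031 and A2032 and 3593, 1681, 5474, 3435 and 2478 in A1693, A1809, A1925, A2441 and A3992. All KPCAf/f lines but A1809 exceeded every KPC line. The log2 fold change of 0.89 (SE 0.29) was not called (limma adjusted p = 0.187, and 0.0525 without A1809). DESeq2 gave an adjusted p of 0.0516. Itga5, Itgav and Itgb5 had an unadjusted limma p under 0.05, or 3 of 6 tested members beside 14.6% of all tested genes.

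Itgb7, known from leukocytes, where it pairs with Itga4 or Itgae, was expressed in lines where both partners stayed under 10 normalized counts. It had 27.5, 279, 109, 39.1 and 2.06 normalized counts in A1081, A1620, A1625, A2031 and A2032 and 544, 31.1, 309, 1309 and 50.2 in A1693, A1809, A1925, A2441 and A3992. The 3 KPCAf/f lines with low Itgb6 again had the highest values, and A1809 and A3992 lay inside the KPC range. The log2 fold change was 2.34 (SE 1.29, limma adjusted p = 0.425). It was 1.41 without A2032, the line with the least Itgb7, and 3.04 without A1620. Itgae had at most 8.18 normalized counts in any line, and Itga4 at most 7.59. Of 15 leukocyte and platelet markers 9 were under 10 in every line, among them Cd3e, at 0 in all lines but A1081 (0.947), and Tyrobp, at 0 in all lines but A1620 (1.32). The other 6 were not: Csf1r reached 185 (A1809) and 142 (A2441), Itga2b 142 (A1693), Laptm5 78.4 (A3992), Itgb2 64.1 (A2441), Lyz2 20.3 (A3992) and Ptprc 11.3 (A2032). The sum of the list was 38.0 to 152 in KPC and 107 to 288 in KPCAf/f, highest in A2441, the line with the most Itgb7. The part of these markers in the Itgb7 values was not tested.

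**Figure D3:**
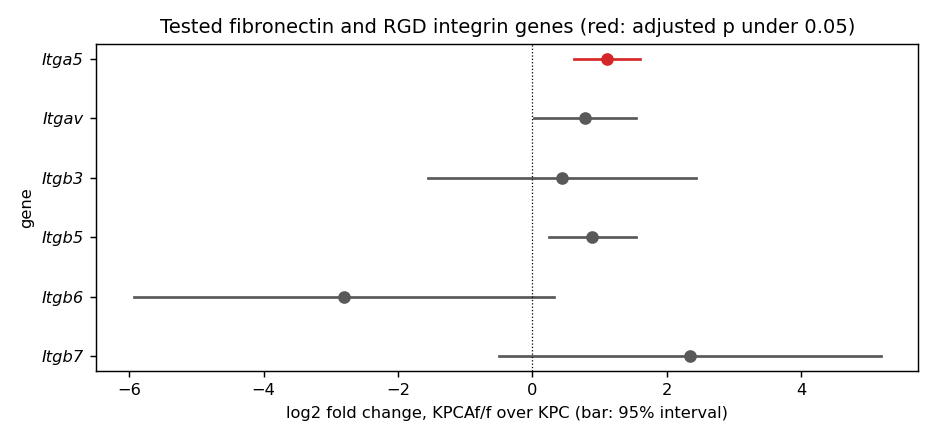
Log2 fold change (KPCAf/f over KPC) of the 6 tested members with 95% intervals from limma. Only the interval of Itga5, at 1.11, belongs to a called gene (red), and that of Itgb6 is the widest, from -5.93 to 0.33.

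Levels of different members were compared per kilobase of merged exons. For Itgb6 and Itgav these have 7111 and 10744 bases, against 4806 and 7054 in the longest transcript. For Itgb3 the 2 lengths are close, at 5901 and 5784. The order of near neighbours and the shares given below therefore depend on the length chosen. In KPC lines the order of mean levels was Itgb5 at 476 ± 96.9 normalized counts per kilobase, Itgav at 239 ± 93.5, Itga5 at 160 ± 34.9, Itgb3 at 88.1 ± 47.9, Itgb6 at 83.8 ± 20.2 and Itgb7 at 33.0 ± 40.6, with the other 4 members at 0.247 or less. Only Itgb5 and Itgav, and Itgb7 and Itga9, were neighbours whose ranges over lines did not overlap. In KPCAf/f lines the order was Itgb5 at 938 ± 401, Itgav at 374 ± 55.2, Itga5 at 348 ± 88.7, Itgb7 at 162 ± 189, Itgb3 at 158 ± 123, Itgb6 at 60.6 ± 77.8, Itgb8 at 11.7 ± 10.5 and Itga8 at 3.54 ± 3.75, then Itga9 and Itga4 at 1.12 or less. There, only the ranges of Itgb5 and Itgav did not overlap as neighbours. The shared partner Itgb1 was far above all of them in counts, at 10985 ± 2364 in KPC and 13790 ± 4125 in KPCAf/f (log2 fold change 0.28, SE 0.27, limma adjusted p = 0.638). Itga2b, which pairs with Itgb3 in platelets, had 12.7 to 32.2 in KPC lines and 20.3 to 142 in KPCAf/f lines (limma adjusted p = 0.333).

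Among Itgb3, Itgb5, Itgb6 and Itgb8, the beta chains that pair with Itgav besides Itgb1, Itgb5 made up 64.8% to 95.1% of the summed level per kilobase in every line. Itgb6 contributed 13.1% ± 3.33 in KPC lines, 22.1% in A1809, 14.1% in A3992, 0.476% in A1925, 0.232% in A2441 and 0.0238% in A1693. Itgb8 reached at most 1.85% (A1693) and was at most 0.0574% in KPC lines. In A1693, A1925 and A2441 the Itgb8 share, 1.02% to 1.85%, thus stayed below the Itgb6 share of every KPC line.

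**Figure D4:**
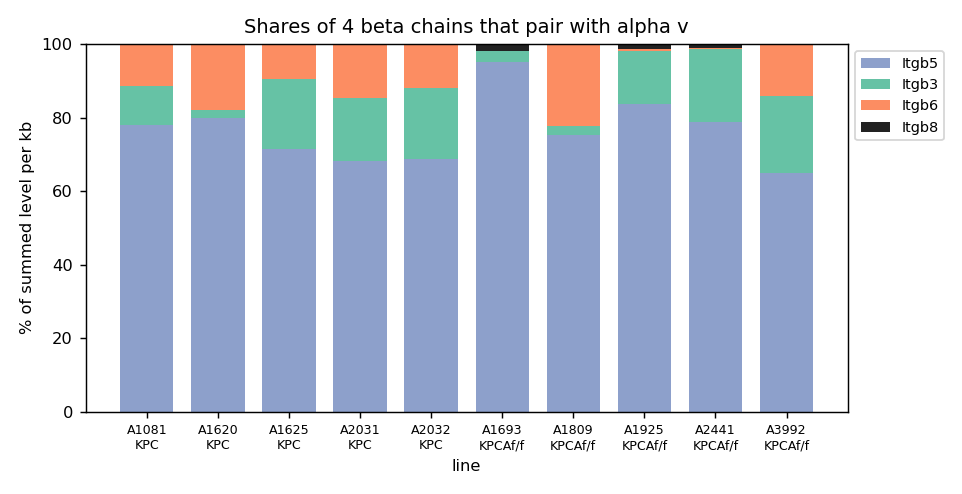
Percent of the summed level per kilobase of Itgb5, Itgb3, Itgb6 and Itgb8 in each line (stacked bars, summing to 100%). Itgb6 is 9.38% to 17.9% in KPC lines and below 1% in A1693, A1925 and A2441.

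Of 20 tested genes on a list of ligands of these receptors, 7 rose and 0 fell (limma), beside 1.36% of all 13089 tested genes called higher. Their median log2 fold change was 1.98, beside -0.01 for all tested genes and 0.84 for the 6 tested members. Fibronectin itself (Fn1) had 2054 to 6377 normalized counts in KPC lines and 10923 to 64340 in KPCAf/f lines, with no overlap (log2 fold change 3.03, SE 0.47, limma adjusted p = 0.00731). A3992 was the lowest KPCAf/f line and A1693 the highest. The others were Thbs1 (thrombospondin-1), Tnc (tenascin-C), Fbn1 (fibrillin-1), Tgfbi and Fbln5 (fibulin-5), ligands of these or related integrins, and the latent growth factor Tgfb3, with log2 fold changes of 2.27 to 8.25. Tgfbi and Fbln5 were under 10 normalized counts in every KPC line and passed the filter only through the KPCAf/f lines. Among KPC lines, Fbn1 reached 10 only in A1620 and Tnc only in A1081 and A2032, so both also needed KPCAf/f lines to pass. The calls of Tnc and Tgfbi were lost by limma-voom (adjusted p = 0.0763 and 0.0791), and that of Thbs1 in limma without A1620 and A1693 (adjusted p = 0.0613). Spp1 (osteopontin), an αvβ3 ligand, was at 42591 ± 34483 and 117249 ± 61502 (limma adjusted p = 0.208). Vtn, which encodes vitronectin, was at 0 in all lines but A2441, which had 1.12 normalized counts. The list and this pattern were known from earlier results of these data and are no independent support.

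Of 11 tested genes of latent TGF-beta storage and activation, 2 rose and 0 fell, beside 1.36% of all tested genes called higher. Tgfb3 rose from 248 ± 69.4 to 1247 ± 481 normalized counts (limma adjusted p = 0.00304). Lrrc32, which encodes the GARP protein that holds latent TGF-beta at the cell surface for αvβ8, had at most 97.5 normalized counts in KPC lines and 319 (A1693) to 2330 (A2441) in KPCAf/f lines. Its mean rose from 21.0 ± 42.8 to 896 ± 821, a change that limma called (log2 fold change 7.14, SE 1.10, limma adjusted p = 0.00677). A1081 carried most of the KPC mean, which was 1.83 ± 2.12 without it. No other KPC line reached 10 normalized counts of Lrrc32, so it needed KPCAf/f lines to pass the filter. edgeR did not call Lrrc32 (adjusted p = 0.0869). It was on in A1809 and A3992 too, at 800 and 461, where Itgb8 was at 17.2 and 7.93. Tgfb1 was at 671 ± 150 and 1072 ± 852 (limma adjusted p = 0.845), and Ltbp1, which tethers latent TGF-beta to the matrix, was at 1378 ± 759 and 4888 ± 2610 (adjusted p = 0.0930). The receptor gene Tgfbr2 had a log2 fold change of 0.56 (limma adjusted p = 0.317).

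Of 36 tested genes on a list of adhesion adaptors, which also holds kinases and regulators, 1 rose and 0 fell. This stands beside 1.36% of all tested genes called higher, so 1 call is no result about the list. The median log2 fold change was 0.20. The called gene was Apbb1ip, which encodes RIAM, a recruiter of talin to integrins. It was under 10 normalized counts in every KPC line, so it passed the filter only through the KPCAf/f lines. It had 3 reads over the KPC lines and 1170 over the KPCAf/f lines, a 331-fold ratio of summed levels (exact counting interval 113 to 1605, limma adjusted p = 0.000819), or 199 (67.8 to 969) without A1693. Fermt2 (kindlin-2) was at 430 ± 164 and 1601 ± 1134 (limma adjusted p = 0.144). Its epithelial relative Fermt1 (kindlin-1) was looked up after the values were seen. It had 472 to 3659 normalized counts in KPC lines, 3915 and 3641 in A1809 and A3992, 1408 in A1925, 38.2 in A2441 and 0.900 in A1693. Zyx and Rsu1 had limma adjusted p of 0.144 and 0.162. Pxn (paxillin) was also looked up after the values were seen. It was lower in every KPCAf/f line (1810 to 2931 normalized counts) than in any KPC line (3089 to 3836). Its log2 fold change was -0.47 (limma adjusted p = 0.236). It was the only adaptor lower without overlap, and Apbb1ip the only one higher, beside 221 and 372 of 13089 tested genes.

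Among the other integrin subunits, 11 of 16 were tested, 1 rose and 0 fell, beside 1.36% of all tested genes called higher. The median log2 fold change was -0.43. Itga11, a collagen receptor chain of fibroblasts, rose from 1.93 ± 3.72 to 61.2 ± 45.6 normalized counts, the KPC mean being 0.279 without A1081. Its log2 fold change was 4.78 (SE 0.76, limma adjusted p = 0.00860). Itga11 was at most 8.52 normalized counts in KPC lines and at least 22.9 in KPCAf/f lines, so it passed the filter only through the latter. It was not called by edgeR (adjusted p = 0.0611), nor by limma without A1620 and A1693 (adjusted p = 0.0513). Itga10 and Itga3 were not called (limma adjusted p = 0.153 and 0.289).

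**Figure D5:**
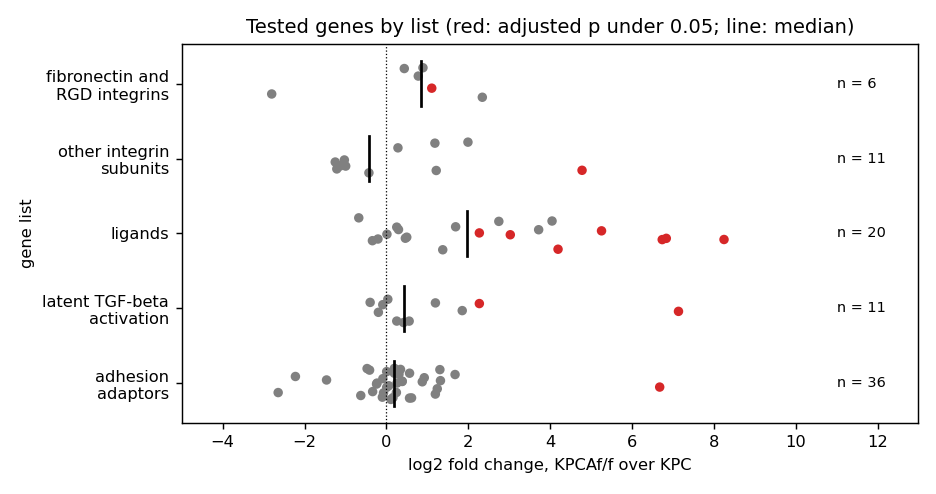
Log2 fold change (KPCAf/f over KPC) of each tested gene in 5 lists, with called genes in red, the others in grey and a bar at the list's median; the vertical position within a list has no meaning. Called genes number 1 of 6 members, 1 of 11 other subunits, 7 of 20 ligands, 2 of 11 latent TGF-beta genes (Tgfb3 is in both lists) and 1 of 36 adaptors, beside 1.75% of all tested genes. Of these, Itga11, Tgfbi, Fbln5 and Apbb1ip passed the filter only through the KPCAf/f lines. Fbn1 (A1620), Lrrc32 (A1081) and Tnc (A1081 and A2032) reached 10 normalized counts only in the KPC lines named. They too needed KPCAf/f lines to pass.

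Markers of fibroblasts and mural cells moved with genotype beside Itga5, Itga8 and Itgb8. The summed level of 12 such markers was 34.0 to 947 normalized counts in KPC lines and 4484 to 15408 in KPCAf/f lines. Of the 6 tested, Pdgfra, Pdgfrb, Acta2, Cspg4 and Col3a1 rose, with log2 fold changes of 5.19 to 10.29, and Pdpn was not called (limma adjusted p = 0.310). Over all tested genes, 1.36% were called higher. The 12 markers summed to only 34.6 in A2031 and 34.0 in A2032, so most were under 10 normalized counts there. A marker under 10 in these lines needed KPCAf/f lines to pass the filter. Dcn, Lum, Fap, Myh11, Des and Rgs5 did not pass it. Fap was at 0 in every KPC line and at 0 to 4.50 in KPCAf/f lines, and Des was at most 14.6 in any line. In bulk RNA, fewer cells of a type and less RNA per cell cannot be told apart, and the part of these markers in the integrin results was not tested. Endothelial markers, whose cells carry Itga5 and Itgb3, summed to 13.4 to 441 in KPC and 12.6 to 677 in KPCAf/f lines, and 4 of 8 were under 10 in every line, Pecam1 among them. Cdh5 carried the highest sums, at 644 in A2441, 415 in A1081 and 106 in A1809, and Kdr reached 73.8 in A2031 and 67.9 in A1809. The part of these markers in the Itga5 and Itgb3 values was not tested.

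The genes whose levels over the 10 lines were most like those of Itgb6 were Llgl2, Fam187b, Crb3, Vill and Slamf9, with Pearson r from 0.97 to 0.99 on the log2 scale. Llgl2 and Crb3 encode epithelial polarity proteins. Crb3 had 274 to 759 normalized counts in KPC lines, 1386 and 408 in A1809 and A3992, and 96.1, 11.2 and 0.900 in A1925, A2441 and A1693. The genes most like Itga5 were Srp54b, Mmp23, Maged2, Gpr176 and Max (r from 0.94 to 0.96), and those most like Itgb3 were Cpt1a, Maob, Igdcc4, Tns3 and Npy4r (r from 0.91 to 0.96). These values describe likeness over 10 lines that fall into 2 genotypes, each line being 1 library.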

How the data were processed

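Per the labels, stranded mRNA libraries were made from 10 mouse pancreatic cancer cell lines. The submitters' processing notes name STAR 2.5.2b, Trimmomatic 0.36, bcl2fastq 1.8.4, Subread 1.5.0p3 with featureCounts, R 3.3.2 and DESeq2 1.14.1, and the builds GRCm38.p5 and mm9 without a role. For the counting annotation and strand, the setting is not given in the sources used here. As signal, the authors deposited gene counts that each library's DESeq2 size factor had divided. Dividing by the value of 1 read gave whole reads within 0.001 for 100% of values in every library. Groups were taken from the genotype labels, 5 lines each. Every pair of libraries differed beyond sampling noise (chi-square per degree of freedom at least 59.1).

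Log2(normalized count + 1) was fitted in limma 3.58.1 (R 4.3.3, trended variance), and two-sided p-values were adjusted by Benjamini-Hochberg across 13089 genes that reached 10 normalized counts in 5 or more lines. A gene under 10 in every KPC line passed only if all KPCAf/f lines reached 10. Itgb6 minus Itga5 was compared by an exact permutation test over every split of the lines. Per-kilobase levels used merged exons of GENCODE M21 (GRCm38), and promoter sequences came from RefSeq (GRCm38.p6). Alternatives were pseudocounts of 0.5 and 5, no filter, a filter on the mean (100 or more), TMM or quantile scaling, a loess correction for transcript length, and leaving out each line, or A1620 and A1693 together. The recovered reads were also tested with limma-voom, DESeq2 1.42.0 and edgeR 4.0.16, which called 105, 731 and 172 genes against 229. After the data were seen, edgeR without a filter, left-out lines without a filter, and ratios or means of Itga8, Apbb1ip, Lrrc32 and Itga11 without 1 line were added. The limma script was tested on simulated data. Members, lists and tests were chosen with earlier results of these data known. By rule, the text names the members, their partners, Fn1, Vtn, Spp1, Tgfb1, Tgfb3, Cdh1, Epcam, the called genes (or up to 4 of smallest p) of the lists of other subunits, ligands, latent TGF-beta and adaptors, and the 5 genes most correlated with Itgb6, Itga5 and Itgb3. Arid1a, Pdx1, Fermt1, Pxn, Gm2415, Cerkl and single markers of other cell types were chosen after their values were seen. Figures were drawn with matplotlib 3.10.9.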

Additional observations from a re-analysis of the deposited data

Results flagged for a closer look

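In 22 sets of 5 lines (10 members and the Itgb6 minus Itga5 difference, per genotype), 5 had a line far from the other 4. The measure was the gap to the nearest line as a share of the range on the log2 scale. Its cutoff flags about 1 set in 20 of independent, normally distributed values. These sets share lines and some rest on a few reads, so that rate does not hold here and 5 of 22 is not read as an excess. A1620 was low for Itgav in KPC (852 normalized counts, gap share 0.791) and for Itgb3 in KPC (80.8, gap share 0.768). A1809 was high for Itga9 in KPCAf/f (31.9, gap share 0.872). A2031 was low for Itga9 in KPC (0, gap share 0.806), and A1625 was high for Itga8 in KPC (0.978, or 1 read, gap share 1.0), both differences of a few reads.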

How the results depend on the processing

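The number of called members, 1 in the report, was 3 without a filter (Itga5, Itga8 and Itgb8), 3 by edgeR without a filter, 0 by limma-voom, 0 without A1620 and A1693 together, and 0 to 1 with any 1 line left out. Over all genes the 229 calls became 131 with a mean of at least 100, 731 by DESeq2 and 105 by limma-voom, and ranged from 152 (without A1925) to 318 with 1 line left out. The Itgb6 minus Itga5 difference of -3.91 kept its sign throughout and ranged from -4.92 to -2.59 with 1 line left out (exact permutation p from 0.0159 to 0.103), and was -2.42 without A1620 and A1693 (exact permutation p = 0.2). With 1 line left out Itgb3 ranged from -0.14 (without A1620) to 1.09 (without A1809), its only change of sign. Called genes of the lists moved to 0 other integrin subunits and 1 latent TGF-beta gene by edgeR, and to 2 subunits and 2 adaptors without A3992. Itgav, Itgb5, Itgb6 and Itgb7 kept their sign and stayed uncalled in the 22 alternatives run for each. No paired analysis was possible because the labels link no KPC line to a KPCAf/f line. At this depth 1 read is about 1 normalized count, so that values of Itga4, Itga8, Itga9 and Itgb8 in KPC lines rest on 1 to 9 reads over the 5 lines.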
